A study of Homo sapiens with 6 samples.

Results

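The cytosolic ribosomal proteins are the proteins of the small (40S) and large (60S) subunits of the ribosome that works in the cytoplasm. Their genes were taken from the deposited count table as every protein-coding row whose symbol has the form RPL or RPS with a number, together with RPLP0, RPLP1, RPLP2 and RPSA and without the Y-linked copies of RPS4. That rule gave 104 of the 63677 rows, for 85 gene symbols. A total of 19 rows, all further rows of 7 symbols such as RPS18 and RPS9 that another row already covered, were at 0 in every library. The minimum on low counts left 81 genes, each with 1 row, among 19434 genes tested in all. A further 4 genes with counts did not pass it, among them RPL10L with 12 and RPL3L with 30 counts over the 6 libraries.

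The study sequenced RNA of 2 human embryonic stem cell lines, named RH6 (Royan H6) and RH5 (Royan H5), in a naive state, which stands for the pre-implantation embryo, and in the primed state of usual culture. Naive cells had been induced with a treatment that the labels call 2a2iL and were kept in 2iL medium, with 2 libraries of RH6 at passage 10 and 2 of RH5 at passage 17. Primed cells grew with bFGF in the medium, with 1 library of RH6 at passage 20 and 1 of RH5 at passage 16. All cultures grew on inactivated mouse embryonic fibroblasts, so state, medium and passage changed together and cannot be told apart, and nothing says that the duplicates were separate cultures, so that p-values measure a spread between libraries that may be technical.

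Total counts were 13457979 to 14663982 per library. The 6 pluripotency markers POU5F1, SOX2, NANOG, LIN28A, DPPA4 and SALL4 were above 0 in every library. Their summed level was 3567 to 4692 CPM (counts scaled to equal library size) in naive and 5353 and 5522 CPM in primed libraries. Most of the sum was LIN28A, at 2308 to 3250 CPM, and single markers differed in direction. In RH6, SOX2 read 314.2 and 344.9 CPM in naive and 721.3 CPM in primed cells. NANOG read 81.29 and 71.31 CPM in naive and 32.27 CPM in primed RH6. The 10 fibroblast markers were also read, at a summed level of 687.1 and 889.9 CPM in naive RH6, 420 and 465.6 CPM in naive RH5, and 295.9 and 298 CPM in primed libraries. Their share in the differences below was not tested. Of the 9 fibroblast markers that passed the minimum on counts, 8 had a positive log2 fold change from primed to naive over both lines. The remaining 1, THY1, had -1.37. In bulk RNA, fewer cells of a type and less RNA per cell cannot be told apart.

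Each ribosome carries a single copy of nearly every ribosomal protein, and the genes are transcribed at a high and coordinated rate in growing cells. Most of their mRNAs begin with a C followed by a run of pyrimidines, the 5′ terminal oligopyrimidine (TOP) tract, through which the mTOR pathway and the binding protein LARP1 adjust their translation and stability. MYC and MYCN are known activators of ribosome production, and a few ribosomal proteins have paralogs that can stand in for them in some tissues.

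The tract is shown for members on which the results turn. RefSeq windows of GRCh38.p14 matched 66 of the 81 members, and 47 of these, or 71.2%, had an annotated start at C followed by at least 4 further letters C or T on the transcribed strand. Of all 27305 symbols with windows, 5.14% met the same description. The 30 bases below run from 20 before the annotated start to 10 from it, and the capitals mark the tract as far as it lies in the window. Of the 4 matched paralogs, 1 had a tract, so 3 pairs of a ribosomal protein and its paralog come first.
RPL22, chr1:6199586-6199615, minus strand: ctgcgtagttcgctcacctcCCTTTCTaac
RPL22L1, chr3:170870186-170870215, minus strand: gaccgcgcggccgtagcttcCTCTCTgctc
RPS27, chr1:153990742-153990771, plus strand: gcaggatttccgctttcgctCCTTTCCggc
RPS27L, chr15:63157468-63157497, minus strand: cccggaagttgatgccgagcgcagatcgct
RPL26, chr17:8383184-8383213, minus strand: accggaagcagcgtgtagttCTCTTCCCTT
RPL26L1, chr5:172958709-172958738, plus strand: caggcagtcttccaggggtcggcgaacgaa
RPL22 and RPL22L1 both had a tract, of 7 and 6 bases, while RPS27L and RPL26L1 had none at the start shown. Next are the 4 members on the X chromosome and RPS6, the 5 members called lower in naive RH6 than in naive RH5.
RPL10, chrX:154398357-154398386, plus strand: atgcgcaggcggaggagcgcCTCTTTCCCT
RPL36A, chrX:101390991-101391020, plus strand: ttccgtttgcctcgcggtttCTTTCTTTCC
RPL39, chrX:119791621-119791650, minus strand: gctcgttcttccgccagcttCCCTCCTCTT
RPS4X, chrX:72277239-72277268, minus strand: cgcgcgcagtctccagccccaatttctacg
RPS6, chr9:19380227-19380256, minus strand: gcgctaagcggaagttggccCTCTTTTCCg
RPL39 had the longest tract among the members, 19 bases, and RPS4X had none at its annotated start. RPLP1, which differed most between libraries, and RPS28, which differed most between the naive lines, complete the set.
RPLP1, chr15:69452798-69452827, plus strand: gctgcgtataggcgcgagagCCCCTTTCCT
RPS28, chr19:8321476-8321505, plus strand: ggctctccccgaagcacgtgactcctctcc
The members were split by a tract at an annotated start, and the starts used in these cells were not tested. The 19 members without such a tract include the paralogs RPL26L1, RPL7L1 and RPS27L. In the comparisons below, the median log2 fold change from primed to naive was -0.04 over the 47 with it and 0.08 over the 19 without. The median difference of naive RH6 from naive RH5 was 0.28 and 0.19 on the log2 scale. Within RH6 the medians from primed to naive were 0.005 with and 0.12 without a tract, within RH5 they were -0.13 and -0.004, and for the difference of these effects between the lines they were 0.16 and -0.02.

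Ribosomal protein genes took 2.94% and 3.27% of all counts in naive RH6, 2.79% and 2.89% in naive RH5, 3.41% in primed RH6 and 3.15% in primed RH5. The Wilson 95% interval of each share was within 0.0093 points of it and covers counting error only. The naive mean was lower by 0.309 percentage points, but the groups overlapped, since naive RH6 library 2 lay above primed RH5. An exact two-sided permutation test over the 15 ways to choose 2 of the 6 libraries gave p = 0.267, where the smallest p that this design allows is 0.067. The ratio of 40S to 60S counts was 0.623 and 0.620 in naive RH6, 0.701 and 0.675 in naive RH5, 0.599 in primed RH6 and 0.635 in primed RH5, highest in the naive RH5 libraries. This order rested on RPS6 and RPS4X: without them, a choice made after the ratio was seen, it was 0.504 and 0.507 in naive RH6, 0.487 and 0.465 in naive RH5, 0.486 in primed RH6 and 0.463 in primed RH5.

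Per kilobase of transcript, the level of the 81 members had a median of 308 CPM per kilobase and an interquartile range of 160 to 703. RPL4, a 60S protein that lines the exit tunnel, stood at the top with 3790 CPM per kilobase and alone made up 13.0% to 16.5% of the members' counts. RPS3A of the small subunit followed at 1980, RPS6, a substrate of the S6 kinases, at 1660, and RPL5, which binds 5S RNA, at 1570 CPM per kilobase. RPL39L, a paralog best known from male germ cells, was lowest at 12.6 CPM per kilobase. These levels also carry how the reads were assigned. The table held 937 pseudogene rows of ribosomal proteins with 308159 counts beside 2592410 counts of the members, and RPL35, RPL24 and RPL14 had fewer counts of their own than their pseudogenes, by ratios of 2.42, 1.32 and 1.30. The read-through genes that share exons with RPL17, RPL36A and RPS10 were at 0 in every library, so the levels of these 3 members depend on how shared exons were counted.

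The first comparison asked which ribosomal protein genes differed between naive and primed cells of both lines. Only 2 of the 81 members were called at an adjusted p under 0.05 by edgeR's quasi-likelihood test, 1 in each direction, against a background of 25.7% of all genes tested (12.1% higher and 13.6% lower in naive cells). The median log2 fold change of the members was -0.04, beside -0.01 over all genes. The median size of the difference in either direction was 0.13 on the log2 scale for the members, beside 0.39 for all genes, and no member reached a 2-fold difference. At an unadjusted p under 0.05 there were 11 members.

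RPL15, a 60S protein that cells need in order to process precursor ribosomal RNA, read 621.9 and 588.4 CPM in naive RH6 and 497.3 and 534.7 CPM in naive RH5, against 828.9 CPM in primed RH6 and 695.1 CPM in primed RH5. Every naive library lay below both primed libraries. RPL15 fell by 0.44 on the log2 scale with an SE of 0.10 (edgeR adjusted p = 0.0169). RPL39, a very short protein at the exit tunnel encoded on the X chromosome, read 114.1 and 116.3 CPM in naive RH6 and 157.8 and 140.6 CPM in naive RH5, against 81.91 CPM in primed RH6 and 121.5 CPM in primed RH5. Within each line the naive libraries were higher, although primed RH5 lay above naive RH6. RPL39 rose by 0.39 on the log2 scale with an SE of 0.11 (edgeR adjusted p = 0.0355), and its pseudogene rows held 0.715 times its own counts. Both calls were lost without naive RH6 library 2 (adjusted p = 0.0625 for RPL15 and 0.1 for RPL39) and without naive RH5 library 1 (0.0762 and 0.128). The call of RPL39 was also lost with upper-quartile factors (0.0648), with total counts (0.0573) and without naive RH6 library 1 (0.0841) or primed RH6 (0.08).

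**Figure D1:**
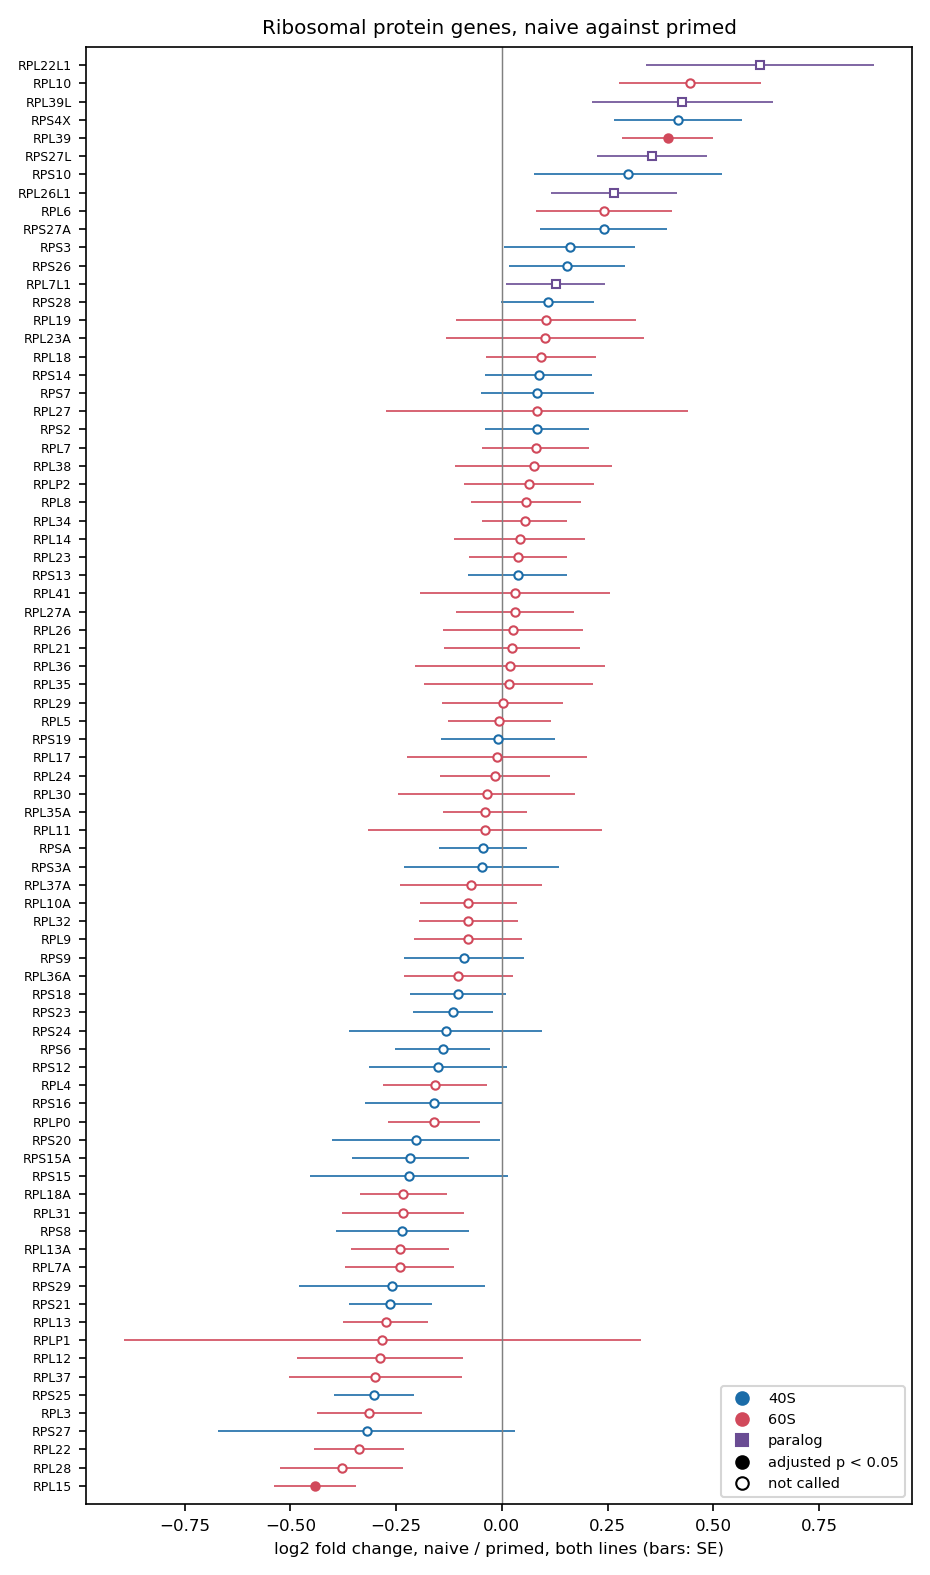
Log2 fold change from primed to naive cells over both lines (x axis, with SE) for 79 of the 81 ribosomal protein genes tested, sorted by value; filled symbols have an adjusted p under 0.05. Only RPL15 (-0.44) and RPL39 (0.39) are filled, the 5 paralogs (squares) all lie right of 0, and the widest bar is that of RPLP1.

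Only 3 members had all 4 naive libraries above both primed ones, and 3 had them all below, 3.7% each beside 21.5% and 22.9% of all genes tested. Those above were RPL10 and the paralogs RPL26L1 and RPL39L, and those below were RPL13, RPL15 and RPL3, the last of which helps to form the peptidyl transferase centre. None of the 30 members of the small subunit was called, and their median log2 fold change was -0.11. The 46 members of the large subunit and its stalk held both calls, with a median of -0.01. The count over all members depended on single libraries and on the scaling. It was 12 (2 higher, 10 lower) without primed RH6, 8 (7 higher, 1 lower) without primed RH5, 1 without naive RH6 library 1 and 0 without naive RH6 library 2 or naive RH5 library 1, where edgeR left 11 and 3 members at an unadjusted p under 0.05. Upper-quartile factors and plain total counts each gave 5, all lower, while they moved the median of all genes to -0.09 and -0.07. The median of the members was then -0.12 and -0.10, and it turned to 0.01 without naive RH6 library 1 and to 0.09 without primed RH5.

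Of the paralogs, 5 were tested and all had a positive log2 fold change, though none was called over both lines. RPL22L1, the paralog of RPL22, read 33.09 and 48.2 CPM in naive RH6, 33.74 and 40.11 CPM in naive RH5, 18.18 CPM in primed RH6 and 33.75 CPM in primed RH5. Primed RH6 stood alone at a low level, and primed RH5 equalled the lower naive libraries. The log2 fold change of RPL22L1 over both lines was 0.61 with an SE of 0.27 (edgeR adjusted p = 0.143), and it passed with no minimum on low counts (0.0388). It rested on primed RH6, since it was 1.19 (adjusted p = 0.00207) without primed RH5 and 0.14 (adjusted p = 0.663) without primed RH6. RPL22 itself, a 60S protein with known roles in T cells, had -0.34 with an SE of 0.11 (adjusted p = 0.0571). RPL39L had 0.43, RPS27L, a target of p53, had 0.36, RPL26L1 had 0.26 and RPL7L1 had 0.13, with adjusted p of 0.192, 0.0867, 0.239 and 0.476.

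The stalk of the large subunit, built of RPLP0 and of pairs of RPLP1 and RPLP2, recruits the elongation factors. RPLP0 read 902.6 and 880.1 CPM in naive RH6, 642.3 and 650.2 CPM in naive RH5, 903.3 CPM in primed RH6 and 794.4 CPM in primed RH5. RPLP1, whose protein binds to the ribosome only through RPLP0, read 230.6 and 706 CPM in naive RH6, 247.1 and 821.4 CPM in naive RH5, 889.8 CPM in primed RH6 and 383.7 CPM in primed RH5. RPLP1 thus differed more within each pair of naive duplicates than RPLP0 did over all 6 libraries. RPLP0, RPLP1 and RPLP2 had log2 fold changes of -0.16, -0.28 and 0.07, with SEs of 0.11, 0.61 and 0.15, and none was called. The sign of RPLP1 turned without naive RH6 library 1 (0.12) and without primed RH6 (0.48), that of RPLP0 turned without primed RH5 (0.01), and that of RPLP2 turned with upper-quartile factors (-0.02) and without naive RH6 library 2 (-0.04).

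Some ribosomal protein genes carry other names and fall outside the symbol rule. FAU encodes a fusion of a ubiquitin-like part with a ribosomal protein, RPL36AL is a copy of RPL36A, and GNB2L1 encodes RACK1 at the head of the 40S subunit. The log2 fold changes of FAU, RPL36AL and GNB2L1 over both lines were 0.01, 0.26 and 0.05, and none was called. Those of FAU and GNB2L1 changed sign when single libraries were left out, and also with upper-quartile factors (-0.07 and -0.03).

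Taken line by line, the contrast of naive with primed cells rested on 1 primed library each, and its spread came from the naive duplicates alone. In RH6, 6 of the 81 members were called, 5 higher and 1 lower in naive cells, beside 33.6% of all genes tested (16.4% higher and 17.2% lower). RPL22L1 rose by 1.16 on the log2 scale (SE 0.23, edgeR adjusted p = 0.00291). RPS27A, which is made as a fusion with ubiquitin, rose by 0.51, RPL39 by 0.49, RPS3, a 40S protein at the mRNA entry that also acts in DNA repair, by 0.46 and RPL21 by 0.36, while RPL15 fell by 0.45. RPS3 and RPL21 are named because the calls were so few. The median log2 fold change of the members in RH6 was 0.055, and it was -0.04 with upper-quartile factors and -0.03 with total counts, which moved the median of all genes to -0.11 and -0.09. Without naive RH6 library 1 the count was 14 (13 higher, 1 lower), and without naive RH6 library 2 it was 21 (4 higher, 17 lower), so the direction of most calls hung on which duplicate was kept. It was also 14 and 15 without naive RH5 library 1 or 2.

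In RH5, 12 of the 81 members were called, 2 higher and 10 lower, beside 33.5% of all genes tested (16.5% higher and 17% lower), and the median log2 fold change of the members was -0.11. The 2 higher members both lie on the X chromosome. RPS4X, a 40S protein with a copy on the Y chromosome, read 1430 and 1370 CPM in naive RH5 and 848.8 CPM in primed RH5. RPL10, which takes part in the last step of 60S maturation, read 299.7 and 264.4 CPM in naive RH5 and 163.4 CPM in primed RH5. For both genes the naive libraries of RH5 lay above the other 4 libraries. RPL10 rose by 0.79 (SE 0.13, edgeR adjusted p = 0.00122) and RPS4X by 0.72 (SE 0.11, adjusted p = 0.000842). RPS29, a small zinc-binding 40S protein, fell by 0.62, a call lost with DESeq2 (adjusted p = 0.135) and limma-voom (0.0531), and RPL28, a 60S protein, by 0.53, a call lost without naive RH5 library 1 (adjusted p = 0.0634). Without naive RH6 library 1 or 2 the count was 25 or 23, and upper-quartile factors gave 19.

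The difference between the state effects of the lines was tested itself and was called for 6 of the 81 members, beside 12% of all genes tested (5.86% more positive in RH6 and 6.16% more positive in RH5). RPL35 at the tunnel exit (0.81, edgeR adjusted p = 0.0364), RPL21 (0.65, 0.0314) and RPS16, whose tail reaches the P site, (0.65, 0.046) had a more positive effect in RH6. RPL10 (-0.66, 0.0408) and RPS4X (-0.59, 0.0357) had a more positive effect in RH5. RPL35 shows the pattern. It read 214.4 and 240.2 CPM in naive RH6 against 167.7 CPM in primed RH6, and 193.7 and 151.5 CPM in naive RH5 against 223.2 CPM in primed RH5. The naive libraries were above the primed one in RH6 and below it in RH5. The pseudogene rows of RPL35 held 2.42 times its own counts, so its values also depend on how shared reads were assigned. The count was 17, 18 and 16 without naive RH6 library 1, naive RH6 library 2 and naive RH5 library 1, and the median over the members, 0.14, turned to -0.03 without naive RH6 library 2. The calls of RPL21, RPL35 and RPS16 were lost without naive RH5 library 2, and those of RPL10 and RPS4X without naive RH5 library 1.

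The naive cells of the lines could be compared with 2 libraries on each side. They were at passage 10 in RH6 and passage 17 in RH5, so line and passage cannot be told apart here. In this contrast 35 of the 81 members, or 43.2%, were called, beside 25.5% of all genes tested. A total of 30 were higher in naive RH6, beside 12% of all genes, and 5 were lower, beside 13.5%. The median log2 difference over the members was 0.26, beside a median of 0.00 over all genes, and 68 members were above 0. Both subunits took part, with 15 of 30 small-subunit members and 14 of 46 large-subunit and stalk members higher.

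RPS28, a small 40S protein beside the mRNA exit, read 59.59 and 55.49 CPM in naive RH6 and 26.17 and 28.53 CPM in naive RH5, with 52.4 CPM in primed RH6 and 25.86 CPM in primed RH5. Its level went with the line in every library, and naive RH6 was higher by 1.07 on the log2 scale (SE 0.11, edgeR adjusted p = 8.19e-05). RPL9, a 60S protein near the base of the stalk, read 227.6 and 220.3 CPM in naive RH6 and 122.5 and 113.2 CPM in naive RH5, with 201.7 CPM in primed RH6 and 145.3 CPM in primed RH5. All 3 RH6 libraries lay above all 3 RH5 libraries, and the naive difference was 0.93 (SE 0.09, adjusted p = 7.7e-05). RPS29 read 21.38 and 30.1 CPM against 13.3 and 14.71 CPM, a difference of 0.88 (SE 0.17, adjusted p = 0.00422). For RPS29 the primed libraries were close, at 23.68 CPM in RH6 and 21.58 CPM in RH5, so that naive RH5 stood apart from the other groups. RPLP0 was also higher in naive RH6, by 0.46 (SE 0.09, adjusted p = 0.00391).

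**Figure D2:**
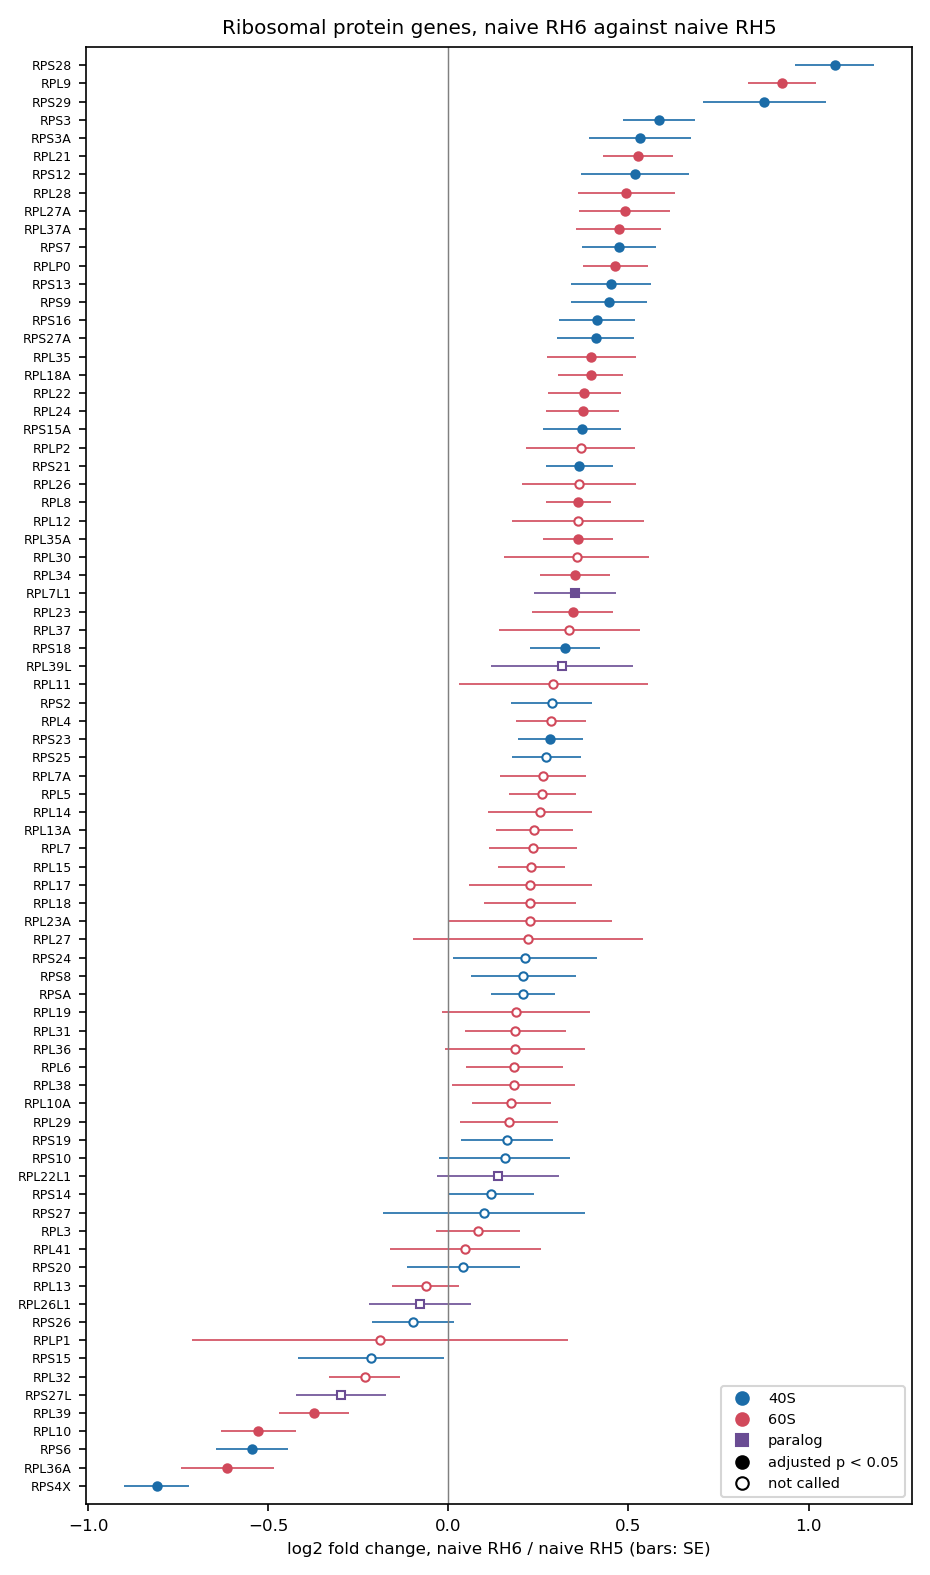
Log2 fold change of naive RH6 over naive RH5 (x axis, with SE) for 79 of the 81 ribosomal protein genes tested, sorted by value; filled symbols have an adjusted p under 0.05. Most points lie right of 0, with 29 filled there, and the 5 filled on the left are RPS4X, RPL36A, RPS6, RPL10 and RPL39.

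Of the 5 members that were lower in naive RH6, 4 are the 4 tested members on the X chromosome. RPS4X read 795.6 and 801.3 CPM in naive RH6, a difference of -0.81 from naive RH5 (SE 0.09, edgeR adjusted p = 0.000148). RPL36A, the X-linked copy beside RPL36AL, read 18.16 and 17.96 CPM in naive RH6 against 29.78 and 25.47 CPM in naive RH5, a difference of -0.61 (adjusted p = 0.00614). RPL10 and RPL39 differed by -0.53 and -0.37. Of these 4 genes, RPL36A, RPL39 and RPS4X were also lower in primed RH6 (19.72, 81.91 and 729.3 CPM) than in primed RH5 (29.19, 121.5 and 848.8 CPM), whereas RPL10 was at 179.3 CPM in primed RH6 and 163.4 CPM in primed RH5. RPS6, on chromosome 9, read 1388 and 1538 CPM in naive RH6, 2022 and 2246 CPM in naive RH5, 1609 CPM in primed RH6 and 2357 CPM in primed RH5, and its naive difference was -0.54 (adjusted p = 0.00323).

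The X chromosome as a whole moved with this contrast. Of 765 tested genes on it, 490 were lower and 19 higher in naive RH6 than in naive RH5, with a median log2 difference of -0.89, beside 0.02 for the 18116 tested genes on other chromosomes. The 4 X-linked members had a median of -0.57 and the 77 others a median of 0.28. From primed to naive cells the median of the X-linked genes was 0.73 in RH5 and -0.06 in RH6. The 4 X-linked members spread around these medians, with RPL10 at 0.79, RPS4X at 0.72, RPL39 at 0.30 and RPL36A at -0.08 in RH5, and at 0.13, 0.13, 0.49 and -0.13 in RH6.

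**Figure D3:**
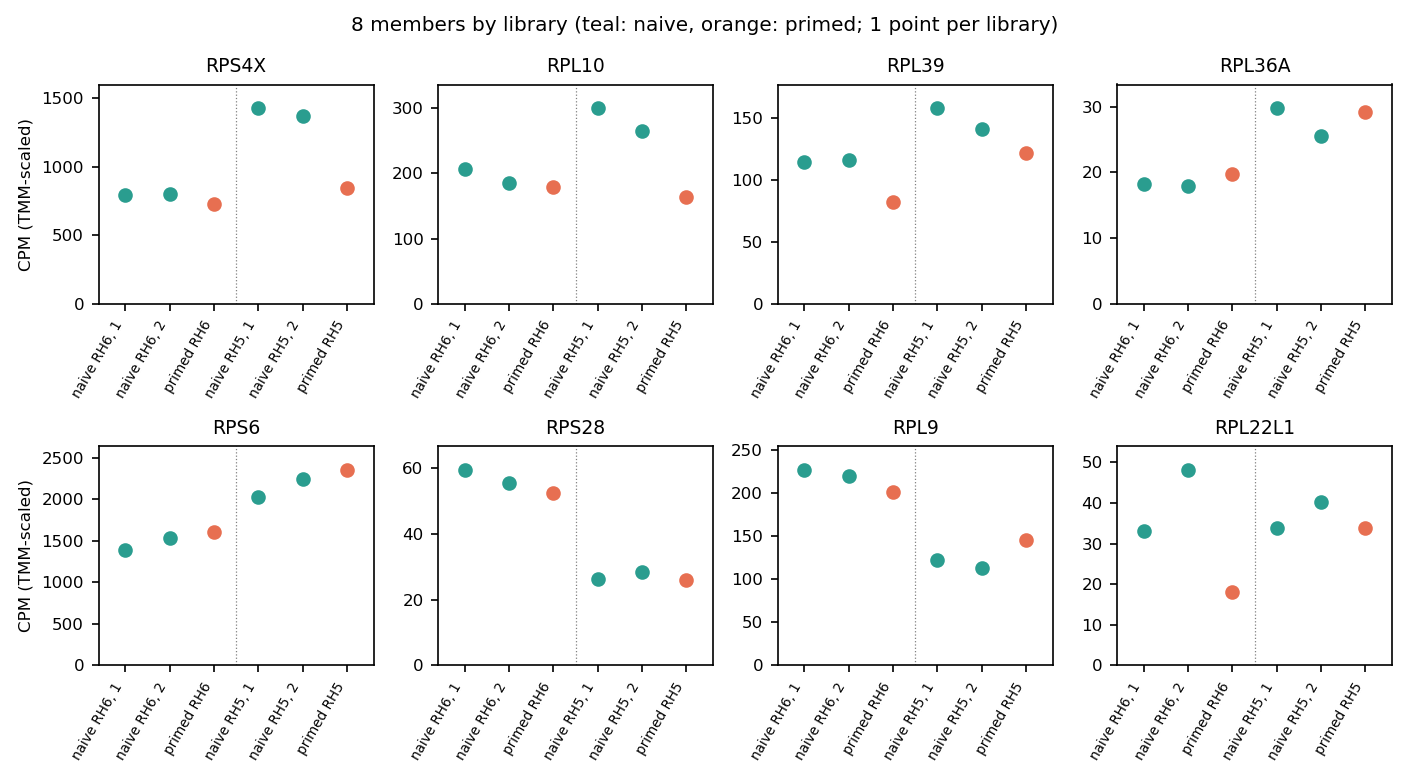
Level in CPM (y axis, from 0) of 8 ribosomal protein genes in each of the 6 libraries, naive in teal and primed in orange, RH6 left and RH5 right of the dotted line. RPS4X and RPL10 are high only in the 2 naive RH5 libraries, RPS28, RPL9 and RPS6 go with the line, and RPL22L1 is lowest in primed RH6 at 18.18 CPM.

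How many members were called between the naive lines depended on the libraries. The count was 61 (56 higher, 5 lower) without naive RH6 library 1, 26 (17 higher, 9 lower) without naive RH6 library 2 and 23 (16 higher, 7 lower) without naive RH5 library 1. The median of the members, 0.26, was then 0.41, 0.08 and 0.19. The scalings tried gave 25 to 30 higher and 5 lower.

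In both lines most members were higher in naive library 2 than in library 1, by less in RH5. In RH6 it was 66 of the 81 members, beside 9215 of all 19434 genes tested, with a median difference of 0.28 in log2 CPM. In RH5 it was 55 members, beside 9739 of all genes tested, with a median of 0.10. Across the 81 members the duplicate difference of RH6 correlated with that of RH5 at Pearson's r = 0.843 and Spearman's rho = 0.752, as a description over genes that share library and depth, while over all 19434 genes r was 0.14. Without the 4 most variable members, r over the other 77 was 0.704.

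RPLP1, with the levels given above, had the largest duplicate difference in both lines, 1.61 in RH6 and 1.73 in RH5 in log2 CPM. RPS27, a zinc-finger 40S protein, read 30.43 and 57.4 CPM in naive RH6, 30.56 and 51.46 CPM in naive RH5, 77.35 CPM in primed RH6 and 34.4 CPM in primed RH5. RPL27 of the large subunit read 21.38, 46.29, 21.29, 36.75, 39.85 and 21.37 CPM in the same order. In both genes library 1 of each naive pair and primed RH5 were low, and library 2 of each pair and primed RH6 were high. RPLP1 had the same 3 low and 3 high libraries. Noncoding RNAs of RNA polymerase III went with them: RN7SL1, of the signal recognition particle, read 499.5, 1489, 750.8, 1454, 1591 and 958.6 CPM and RMRP, an RNA that processes ribosomal RNA, read 97.38, 283.3, 144.2, 311.1, 352.8 and 147.6 CPM in that order. These 2 RNAs were chosen after their values were seen, and their part in the spread of the members was not tested. In none of the comparisons was RPLP1, RPS27 or RPL27 called. The duplicate difference in RH6 was larger for short transcripts, with a rank correlation with length of -0.432 over the members, and in RH5 that correlation was -0.147.

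**Figure D4:**
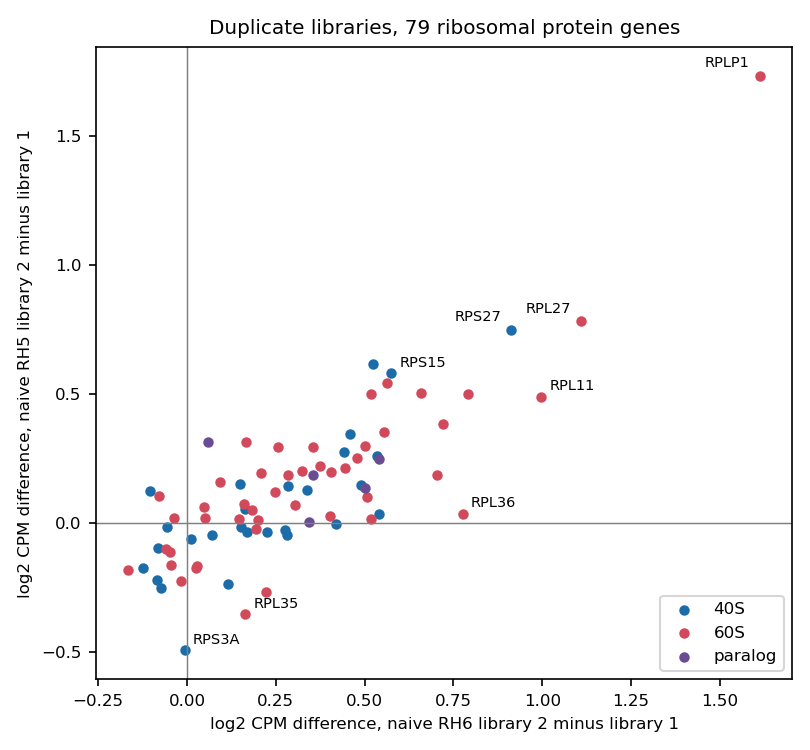
Difference in log2 CPM between library 2 and library 1 of naive RH6 (x axis) and of naive RH5 (y axis), 1 point for each of 79 of the 81 ribosomal protein genes tested. The points run from lower left to upper right (r = 0.843 over all 81), with RPLP1, RPL27 and RPS27 at the upper end.

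Across all 6 libraries the highest level of a member was a median of 1.55 times its lowest, and 10 members exceeded 2 times. RPLP1 had the widest range, at 3.86 times. Naive RH6 library 2 was the highest library for 40 members and naive RH5 library 1 the lowest for 30. These ranges and counts were taken over the members only, without a share over all genes to set beside them.

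Genes that work with the ribosomal proteins were compared by the same tests. Of 14 other genes known for TOP mRNAs, none was called over both lines, beside 25.7% of all genes tested, and 9 were higher and none lower in naive RH6 than in naive RH5, beside 12% and 13.5%, with a median difference of 0.35. EEF1A1, the elongation factor that brings aminoacyl-tRNA to the ribosome, read 4554 and 4163 CPM in naive RH6, 3125 and 3111 CPM in naive RH5, 5082 CPM in primed RH6 and 4376 CPM in primed RH5, so naive RH5 was the low group here too. The difference of EEF1A1 between the naive lines was 0.48 (edgeR adjusted p = 0.00437). This gene and the snoRNA hosts and POLR1B below were chosen after their values were seen.

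Host transcripts of small nucleolar RNAs, which guide the modification of ribosomal RNA and often carry a TOP tract themselves, showed the difference between the naive lines throughout. All 13 tested were called higher in naive RH6 than in naive RH5, beside 12% of all genes tested, with a median of 0.79, and none was called from primed to naive over both lines. Within RH6, 8 were higher and none lower in naive cells, beside 16.4% and 17.2% of all genes tested, with a median of 0.58. Within RH5 none was higher and 6 were lower, beside 16.5% and 17% of all genes tested, with a median of -0.42. GAS5 read 140.1 and 153.7 CPM in naive RH6 and 98.55 CPM in primed RH6, but 80.78 and 85.75 CPM in naive RH5 and 144.9 CPM in primed RH5. SNHG1 read 157.5, 170.7 and 109.6 CPM in the same RH6 libraries and 82.05, 73.5 and 148.7 CPM in those of RH5. The state effect of both hosts was opposite in the lines, and the difference between the lines was called for 9 of the 13, all more positive in RH6 (GAS5 1.38, edgeR adjusted p = 0.000661, and SNHG1 1.52, adjusted p = 0.000442).

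RNA polymerase I, which transcribes the ribosomal RNA genes, and its factors gave 8 of 14 genes higher and none lower in naive RH6 than in naive RH5 (12% and 13.5% of all genes tested), with a median of 0.44, and none called over both lines. TAF1D counts both there and among the snoRNA hosts. POLR1B, the second-largest subunit, read 136.6 and 139.8 CPM in naive RH6, 92.73 and 83.06 CPM in naive RH5, 121.2 CPM in primed RH6 and 123.6 CPM in primed RH5. Of 37 ribosome assembly factors, 11 were higher and none lower in naive RH6 than in naive RH5, beside 12% and 13.5% of all genes tested, with a median of 0.24. Over both lines 3 assembly factors rose in naive cells and none fell. They were UTP14A, of the early small-subunit particle (0.61, edgeR adjusted p = 0.03), SBDS, which helps to release the anti-association factor from new 60S subunits (0.61, 0.0176), and RIOK1, a kinase of late 40S maturation (0.47, 0.0488). These calls are 8.11% of the list, beside 12.1% of all genes tested. Each was lost without naive RH6 library 2 (adjusted p of 0.0941, 0.0615 and 0.101), SBDS also without naive RH6 library 1 (0.0512), and UTP14A also without either naive RH5 library (0.0808 and 0.0834) or primed RH5 (0.0532). RIOK1 lost its call in 10 of 16 alternative settings, among them upper-quartile factors (0.0828) and total counts (0.0632), and kept it without 1 library only when that was primed RH5.

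Of 21 translation initiation factors, 4 rose and none fell in naive cells over both lines, beside 12.1% and 13.6% of all genes tested, with a median of 0.22. EIF4G1, the scaffold of the cap-binding complex, read 875.6 and 952.1 CPM in naive RH6, 822 and 853.9 CPM in naive RH5, 574.3 CPM in primed RH6 and 656.6 CPM in primed RH5. It rose by 0.51 (edgeR adjusted p = 0.0214), EIF1AX, which is X-linked and helps to select the start codon, by 0.46 (0.0287), and EIF3I, of the eIF3 complex, by 0.45 (0.0231). The calls of EIF4G1 and EIF1AX were lost without any 1 of the naive libraries (adjusted p of 0.0504 to 0.101 for the 2 genes), and that of EIF3I without naive RH6 library 2 or either naive RH5 library.

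Among 20 tested regulators of MYC and mTOR, 3 rose and 1 fell over both lines, beside 12.1% and 13.6% of all genes tested. MYC read 76.77 and 82.42 CPM in naive RH6 and 123.4 and 131.2 CPM in naive RH5, against 42.4 CPM in primed RH6 and 52.95 CPM in primed RH5, and rose by 1.09 on the log2 scale (SE 0.12, edgeR adjusted p = 0.00143). MYCN read 109.6, 111, 114.6 and 134.2 CPM in the naive libraries of RH6 and RH5, against 297.4 CPM in primed RH6 and 197.1 CPM in primed RH5, and fell by 1.06 on the log2 scale (SE 0.17, adjusted p = 0.00567). The naive libraries did not overlap the primed ones in either gene, in opposite directions. DEPTOR, an inhibitor inside the mTOR complexes, rose by 0.96 (SE 0.20, adjusted p = 0.0142), a call lost without naive RH5 library 1 (0.059). Between the naive lines MYC was lower in RH6 by 0.68 (edgeR adjusted p = 0.000665), and MYCN was not called (-0.17, adjusted p = 0.253). A link of either gene to the levels of the ribosomal protein genes was not tested.

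**Figure D5:**
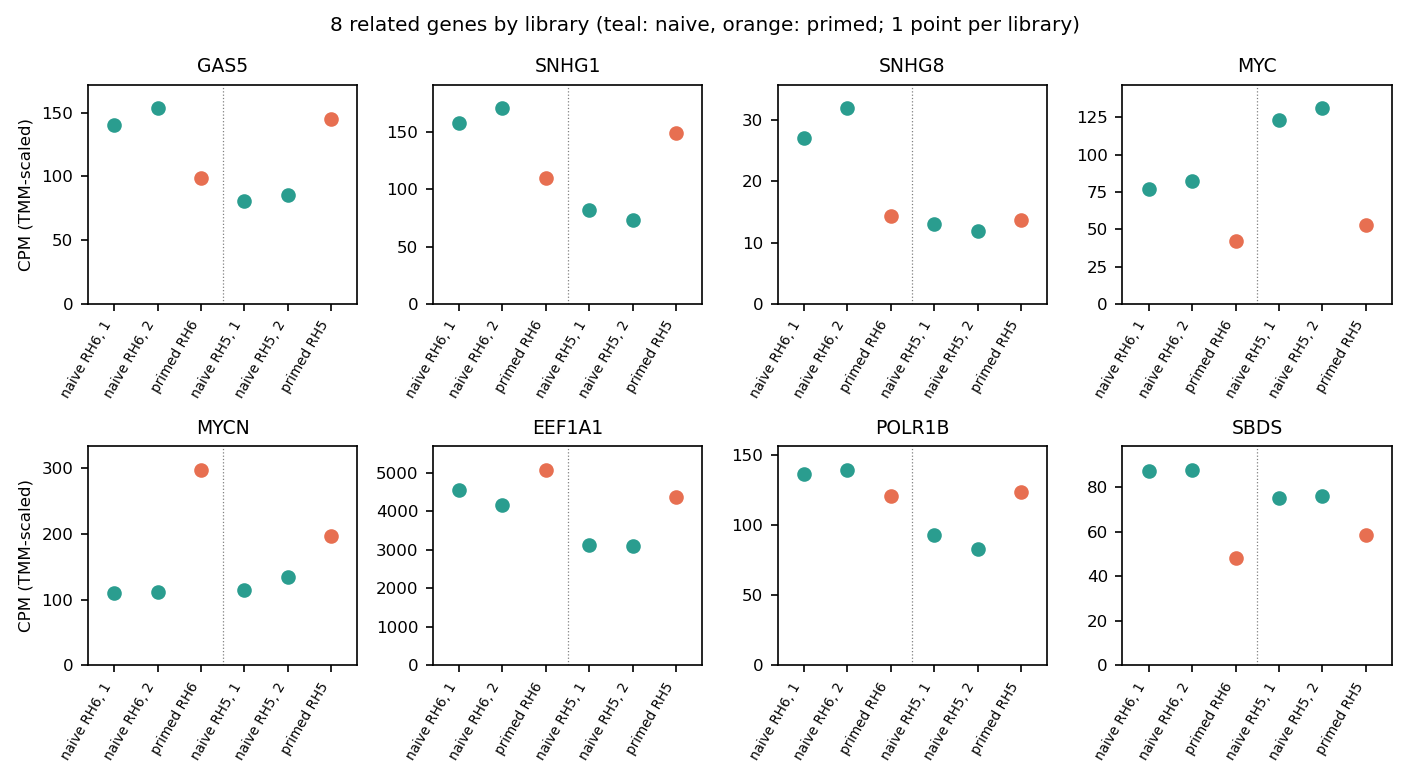
Level in CPM (y axis, from 0) of 8 genes of ribosome production and its regulation in each of the 6 libraries, naive in teal and primed in orange, RH6 left and RH5 right of the dotted line. GAS5 and SNHG1 are higher in naive than primed RH6 and lower in naive than primed RH5, while MYC is higher and MYCN lower in all 4 naive libraries.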

How the data were processed

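The authors deposited read counts per gene, whole numbers that were not normalized, in 1 table for the 6 libraries. Per the labels' protocols, RNA without the small fraction was DNase-treated, libraries came from a stranded total RNA kit and were sequenced as read pairs, while the molecule field names polyA RNA. Builds listed in the submitters' processing notes are hg19 and GRCh37.p5, and tools are DESeq2, FastQC, Subread with featureCounts 1.4.5-p1, and STAR 2.4.0a, without their order. Not given in the sources used here are the annotation, the strand setting and the treatment of reads that fit several loci, so reads shared by a gene and its pseudogenes or an opposite-strand gene cannot be told apart.

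The two-sided quasi-likelihood test of edgeR 4.0.16 (R 4.3.3) with TMM factors was run on the counts, after filterByExpr with the state as group (minimum count 10, minimum total 15). P-values were adjusted by Benjamini-Hochberg over all 19434 genes tested, and called means an adjusted p under 0.05. Naive against primed over both lines had the line as covariate (3 residual degrees of freedom). The other contrasts came from a fit with 1 mean per group (2 residual degrees of freedom), which takes the variation of the lone primed libraries from the naive duplicates. CPM values use TMM-scaled totals, and differences of log2 CPM a prior count of 2. Alternatives were RLE, upper-quartile and no factors, TMM factors without ribosomal protein genes, no minimum on counts, DESeq2 1.42.0, limma-voom (limma 3.58.1), no line term, the replicate numbers as a block, summed duplicates, and each library left out.

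Named were all tested paralogs and stalk proteins, the called members of largest change in each comparison, the ribosomal proteins outside the symbol rule and up to 3 called genes of each related list. Some exceptions are marked in the text. Others, such as RPL22, RPS27 and RPL27, were named outside this rule without a mark. The members and lists were chosen with earlier results of these data known. Transcript lengths and chromosomes came from GENCODE 29 (GRCh38) by Ensembl identifier, and windows around starts from RefSeq (GRCh38.p14). Protein sequences were not used here, and a few genes that enter the counts and medians are not reported here.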

Additional observations from a re-analysis of the deposited data

Results flagged for a closer look

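The effect of the naive state was called as different between RH6 and RH5 for 6 of the 81 ribosomal protein genes. These are 7.41% of the members, beside 12% of all genes tested. Some related genes were called as well. The test was of the difference itself (edgeR, adjusted over all genes). Written as the log2 effect in RH6 minus that in RH5, the difference was 0.81 for RPL35, 0.65 for RPL21, 0.65 for RPS16, -0.66 for RPL10 and -0.59 for RPS4X. Among the snoRNA host transcripts it was 1.38 for GAS5, 1.52 for SNHG1 and 1.17 for SNHG8. For MYCN it was -0.77, with the gene lower in naive cells of both lines. Other related genes were also called, among them POLR1B (0.68) and the pluripotency markers NANOG (1.27), DPPA4 (0.76) and SALL4 (0.59). Each primed arm was 1 library, and the pseudogene rows of RPL35 held 2.42 times its own counts.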

How the results depend on the processing

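Counts of called members are given with the main count first. Over both lines (2) they were 5 with upper-quartile factors, 5 with total counts, 5 with no minimum on counts, 4 with DESeq2, 0 with no line term and 0 with naive duplicates summed, where 4 and 0 members had an unadjusted p under 0.05. Leaving out each library in turn gave 0 to 12. In RH6 (6) they were 10 with total counts, 19 with no minimum on counts and 8 to 21 with a library left out. In RH5 (12) they were 19 with upper-quartile factors, 23 with no minimum, 7 with DESeq2 and 9 to 25 with a library left out. For the difference between lines (6) they were 20 with no minimum, 3 with DESeq2 and 4 to 18 with a library left out, and for the naive lines (35) 23 to 61. The share of counts differed by -0.442 to -0.177 points with a library left out. RLE factors and TMM factors without ribosomal protein genes kept every count within 1.5 times. The share of all genes called moved with the setting too. With no minimum on counts, 85 members were tested. The share of all genes called was then 14.6% over both lines, 18.1% in RH6, 18.1% in RH5 and 8.15% for the difference between lines.

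With the replicate number as a block, the counts were 1, 31 (14 higher, 17 lower), 38 (10 higher, 28 lower), 32 (19 higher, 13 lower) and 60 (51 higher, 9 lower) in the same order. Of all genes tested, 18.2%, 45.1%, 45.1%, 25.3% and 38.1% were called with that block. The numbers 1 and 2 were shared by the naive pairs only and nothing says that they mark a shared day, so the samples share only a number, although members deviated together by it.

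Of the named genes, signs turned only for values over both lines that were not called. With upper-quartile factors they were -0.017 for RPLP2, -0.072 for FAU and -0.034 for GNB2L1, and with total counts -0.051 for FAU and -0.014 for GNB2L1. With each library left out in turn, the log2 fold change ran from -0.29 to 0.009 for RPLP0, -0.892 to 0.483 for RPLP1, -0.042 to 0.165 for RPLP2, -0.216 to 0.283 for FAU and -0.033 to 0.166 for GNB2L1. Over the named genes and settings, 528 other values kept direction and call, 69 lost the call and 2 gained it. The causes were not tested. With 2 primed libraries an exact test of 1 value cannot give a p under 0.067.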
